A study of Rattus with 6 samples.

Results

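Actb, B2m, Hprt1, Gusb and Hsp90ab1 are genes commonly used as internal references when RNA levels are compared between tissues. Their signals were described here in the myocardium of rats with ischemia-reperfusion, a blood supply stopped and then restored. Each gene was represented by 1 probe, found by probe name for Gusb and Hsp90ab1 and by RefSeq transcript for Actb, B2m and Hprt1. These 5 probes were among 62 mRNA probes, with names for 38 genes, on an array that otherwise carried 14145 probes for circular RNAs (circRNAs). Male SD rats, with age and genotype not given in these sources, gave 2 groups of 3 arrays. The labels do not say that the arrays of a group came from separate animals, so p-values measure only the spread between these samples, which may be technical. In the ischemia-reperfusion rats the left anterior descending coronary artery was ligated for 40 min and the heart was reperfused for 2 h. In the control rats a thread was placed at the same position without ligation, and the labels give the same 2 h. Total RNA from each sample was amplified by random priming to cRNA carrying Cy3. The sources used here do not say whether linear RNA was digested first, and mRNA signal may then differ from mRNA amount.

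A reference gene is useful when its RNA amount per cell is steady across the conditions compared, so that dividing by it removes differences in input and labelling. Actb encodes cytoplasmic beta-actin, a building block of the cytoskeleton in all cell types of the heart. B2m encodes beta-2-microglobulin, the invariant light chain of MHC class I molecules. Hsp90ab1 encodes the constitutive cytosolic form of the chaperone HSP90. Hprt1 encodes the enzyme that salvages hypoxanthine and guanine for purine synthesis, and Gusb encodes beta-glucuronidase, a lysosomal enzyme.

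The 6 arrays came from 1 scan of 1 slide. Its first row held all ischemia-reperfusion arrays plus control replicate 1, and its second row held control replicates 2 and 3. The 75th percentile of circRNA signal was 64.4 to 102 intensity units, and no spot of the reference gene probes was saturated. No marker of the cardiomyocyte list (0 of 14) had a named mRNA probe, and in the lists for 6 other cell types only the neuronal gene Map2 had one. The labelled tissue could therefore not be checked against its defining markers. Control replicate 1 stood apart at low signals. The 10 E1A control probes, which are designed for an added adenoviral control RNA, had a median signal of 23.3 intensity units on that array and 7.69 to 12.8 on the other 5. Individual E1A probes read between 1.0 and 282 intensity units, and the scanner software recorded no fit for an added control RNA.

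Each reference gene had 10 repeat spots per array. The 5 probes differed widely in brightness, from Hsp90ab1 at 2039 to 4066 intensity units, through B2m at 241 to 469 and Actb at 54.0 to 104, down to Gusb at 4.4 to 26.5 and Hprt1 at 5.75 to 10.9. Brightness depends on each probe as well as on its RNA, so these ranges do not rank the genes. Hprt1 lay below the E1A median on 5 of 6 arrays and Gusb on 4 of 6, whereas the other 3 genes lay above it on every array. The scanner software nevertheless marked Hprt1 as well above background on all 6 arrays and Gusb on 5. Only ischemia-reperfusion replicate 2 was not well above background for Gusb, with 0 of 9 kept spots marked.

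**Figure D1:**
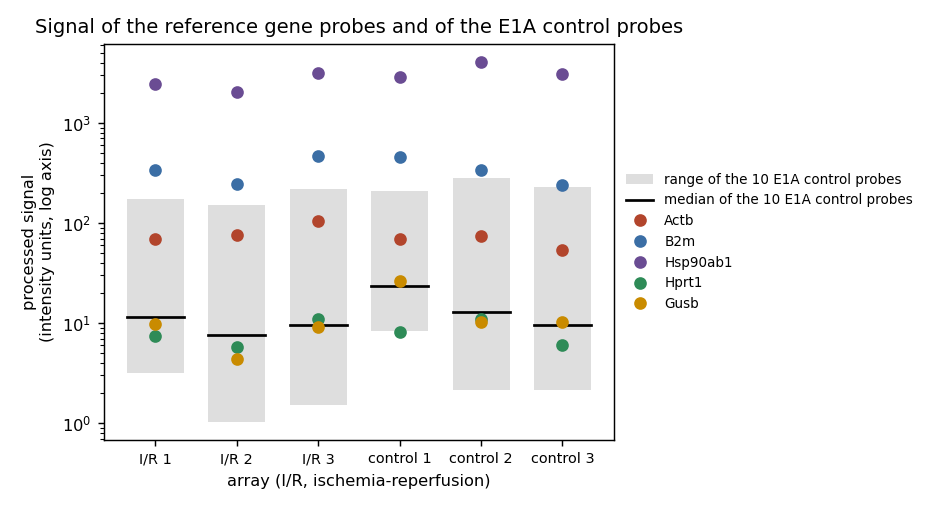
Processed signal in intensity units (log axis) of the 5 reference gene probes on each array, I/R standing for ischemia-reperfusion; each point is the mean log2 signal of up to 10 spots put back on the linear scale, grey bars span the 10 E1A control probes and black lines mark their median. Hsp90ab1 and B2m lie above the grey bars on all 6 arrays, Gusb and Hprt1 lie around or below the black lines, and both the black line and Gusb are highest on control replicate 1.

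The main comparison asked whether the reference genes differed between reperfused and control myocardium. None of the 5 passed an adjusted p of 0.05 in limma, where 1 of 43 tested mRNA probes, or 2.33%, did, that of Map2, a neuronal microtubule-associated protein. Map2 passed narrowly (limma adjusted p = 0.0499), and with the replicate number as a block 0 of 43 probes passed. At an unadjusted p under 0.05 there was 1 of the 5, Gusb, beside 9 of 43, or 20.9%. Actb and B2m had positive differences and Hsp90ab1, Hprt1 and Gusb negative ones, with a median of -0.04 on the log2 scale against -0.25 over all 43 probes. Of those 43, 33 had negative differences. The positive end of the ordered differences was Actb and the negative end was Gusb. In bulk tissue such as this, fewer cells of a type and less RNA per cell cannot be told apart.

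**Figure D2:**
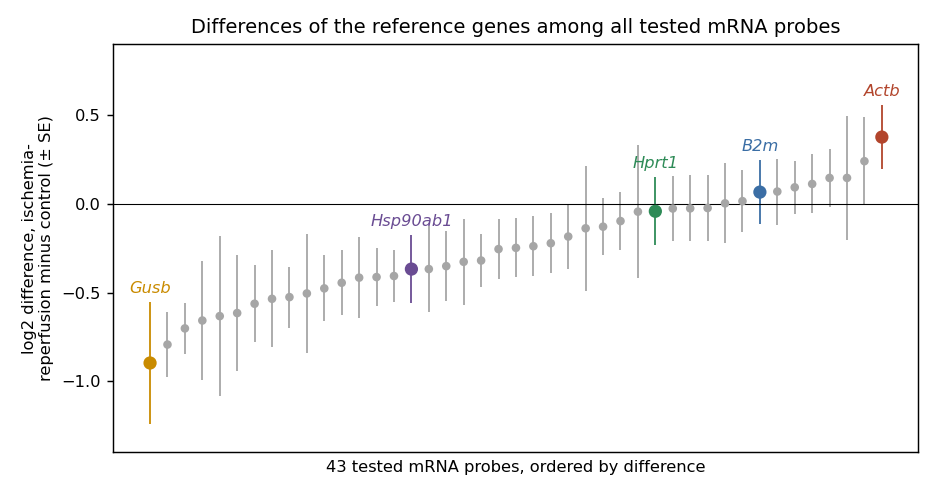
Log2 difference, ischemia-reperfusion minus control, with its SE (bars) for each of the 43 tested mRNA probes in order of difference; coloured points are the reference genes and grey points the other probes. Gusb, at -0.90, and Actb, at 0.38, stand at opposite ends, and Hprt1 and B2m lie near 0.

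Actb read -0.29, 0.24 and 0.03 on reperfused arrays 1 to 3, against -0.47, -0.29 and -0.39 on the controls. These are normalized log2 signals, on which 0 marks the 75th percentile among that array's circRNA probes. Every ischemia-reperfusion value lay above every control value, but the groups were separated by only 0.0038, between ischemia-reperfusion replicate 1 and control replicate 2. That gap was smaller than the SE over repeat spots, which reached 0.028 for Actb. Controls averaged -0.38 ± 0.09 and ischemia-reperfusion arrays -0.0070 ± 0.27 (SD, n = 3 each). The difference was 0.38 (SE 0.18, 95% interval -0.04 to 0.79, limma adjusted p = 0.269). Actb was the only one of the 43 probes (2.33%) whose ischemia-reperfusion arrays all lay higher, and for 8 (18.6%), none of them a reference gene among the 5, all lay lower. Over both directions that is 9 of 43, or 20.9%, beside 17.3% of 12960 circRNA probes. The groups were apart under 9 of 13 scalings and treatments of the spots. The other 4 were the circRNA median, quantile scaling, unscaled signals, and circRNA probes of like brightness as the reference. In all 13 the difference was positive, and it was 0.25 to 0.52 when 1 array was left out. It was 0.61 with scaling to the mean of the mRNA probes and 0.93 with scaling to the E1A probes, against 0.23 with the normexp background correction, whose offset of 50 intensity units shrinks differences of dim probes. Probe sequences were not used here, so binding of the Actb probe to other actin transcripts was not tested.

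B2m read 2.00, 1.92 and 2.20 on the normalized log2 scale after ischemia-reperfusion and 2.26, 1.90 and 1.76 in controls. The control values spanned those of the ischemia-reperfusion arrays, and both groups contained low and high arrays. Means were 2.04 ± 0.14 and 1.97 ± 0.26 (SD, n = 3 each), and the difference was 0.07 (SE 0.18, 95% interval -0.35 to 0.48, limma adjusted p = 0.869). The sign turned when replicate 3 of either group was left out, to -0.013 for the ischemia-reperfusion array and -0.04 for the control array. It was positive under all 12 alternatives in scaling and spot treatment, with 0.62 as the highest value, from scaling to the E1A probes. The B2m groups were apart, with all ischemia-reperfusion arrays higher, under 2 of the 13 settings. These were the mean of the mRNA probes, with a difference of 0.30, and the E1A probes.

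Hsp90ab1, the brightest of the 5 probes, read 4.85, 4.98 and 4.94 after ischemia-reperfusion and 4.93, 5.49 and 5.46 in controls on the normalized log2 scale. Control replicates 2 and 3 were the highest, above the other 4 arrays, and control replicate 1 lay among the ischemia-reperfusion arrays. The difference was -0.37 (SE 0.19, 95% interval -0.81 to 0.07, limma adjusted p = 0.274). Controls averaged 5.29 ± 0.31 and ischemia-reperfusion arrays 4.93 ± 0.07 (SD, n = 3 each). Without control replicate 1 the probe passed, at -0.55 (limma adjusted p = 0.0408). Over the 24 alternatives that p ran from 0.0408 to 0.974. With control replicate 1 left out, each group filled a slide row of its own, so group and row cannot be told apart in that fit. Set against circRNA probes of like brightness the difference was -0.15, as it was after quantile scaling, and cyclic loess gave -0.08. The groups were apart under 1 of the 13 settings, that of like brightness, with all ischemia-reperfusion arrays lower. The difference was wider than in the main fit with normexp, at -0.40 (limma adjusted p = 0.0697). With array quality weights it was -0.49 (limma adjusted p = 0.097). With scaling to the E1A probes the sign turned, to 0.19.

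Hprt1 had normalized log2 signals of -3.53, -3.49 and -3.23 after ischemia-reperfusion and -3.53, -3.05 and -3.55 in controls. Control replicate 2 was the highest array and control replicate 3 the lowest, so that the control group enclosed the other. The means were -3.42 ± 0.16 and -3.37 ± 0.28 (SD, n = 3 each), and the difference was -0.04 (SE 0.19, 95% interval -0.48 to 0.40, limma adjusted p = 0.953). The interval leaves room for a change in either direction. The sign turned to positive with quantile scaling (0.35), cyclic loess (0.28), the mean of the mRNA probes (0.20), normexp (0.024), the E1A probes (0.51) and circRNA probes of like brightness (0.31). Leaving out ischemia-reperfusion replicate 1 (0.015) or control replicate 2 (0.12) turned it too.

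Gusb had normalized log2 signals of -3.11, -3.87 and -3.47 after ischemia-reperfusion and -1.84, -3.14 and -2.79 in controls. The high value of control replicate 1 and the low value of ischemia-reperfusion replicate 2 set the range of 2.03, and the groups overlapped between ischemia-reperfusion replicate 1 and control replicate 2. The difference was -0.90 (SE 0.34, 95% interval -1.69 to -0.11, limma adjusted p = 0.189). Controls averaged -2.59 ± 0.67 and ischemia-reperfusion arrays -3.49 ± 0.38 (SD, n = 3 each). The Gusb groups were apart under 6 of the 13 settings. The difference was -0.52 without control replicate 1 and reached -1.17 without control replicate 2. It was -0.70 without ischemia-reperfusion replicate 2, where the probe was not well above background. The E1A probes differed in the same direction. Their median on the same scale was -2.90, -3.07 and -3.43 after ischemia-reperfusion and -2.03, -2.82 and -2.88 in controls, so that the E1A difference was -0.56 (exact permutation test, two-sided, p = 0.1, the smallest possible). Without control replicate 1 it was -0.28. How far the background moved the Gusb difference was not tested, and neither was whether the E1A median measures background. Relative to the E1A median of the same array, the Gusb difference was -0.34 (limma adjusted p = 0.861), and over the 23 alternatives the adjusted p ran from 0.0762 to 0.861. With normexp it was -0.13, the offset being larger than every Gusb signal.

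**Figure D3:**
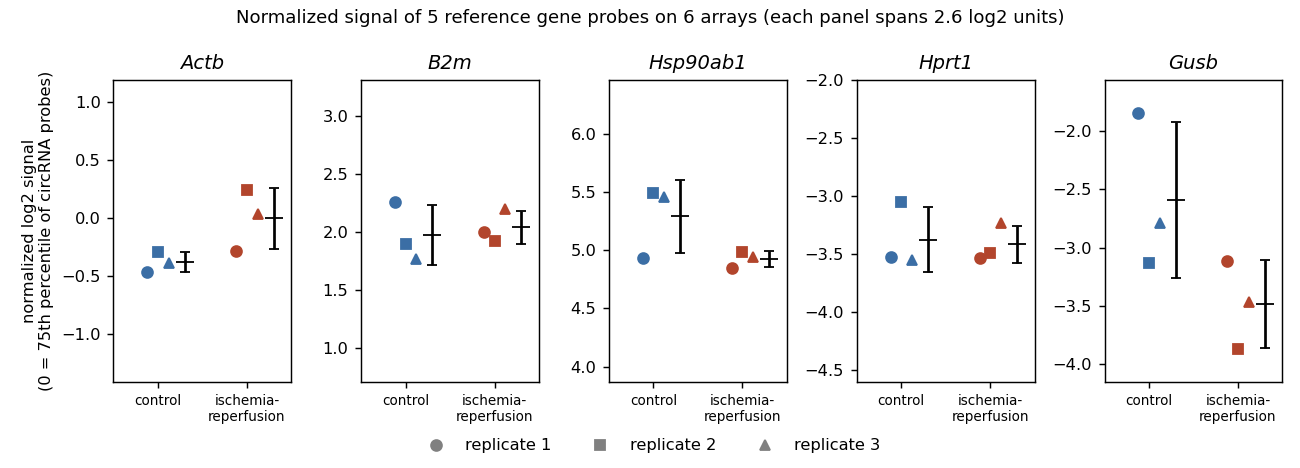
Normalized log2 signal of each reference gene probe on the 3 control (blue) and 3 ischemia-reperfusion (red) arrays, with marker shape giving the replicate number and black bars the mean ± SD of each group; every panel spans the same number of log2 units. On this scale Gusb varies most, with control replicate 1 at -1.84, while for Actb the lowest ischemia-reperfusion value and the highest control value both lie at -0.29.

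The scaling set where 0 lay. The median difference of all 43 probes was -0.25 with the circRNA 75th percentile, -0.09 with cyclic loess, -0.01 with the mean of the mRNA probes, -0.07 with normexp and 0.31 with the E1A probes. Of the 13 settings, 7 shift all probes of an array alike and leave distances from this median as they are, so only the other 6 could change them. Over all of these, Actb lay 0.30 to 0.62 above it, B2m 0.12 to 0.33 above and Hprt1 0.10 to 0.51 above. Gusb lay below it by between -0.68 and -0.06, and Hsp90ab1 ran from -0.32 to 0.05. For Hprt1 the distance was 0.21 in the first 7, close to the SE of its difference.

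The slide row offered a comparison within 1 row, with control replicate 1 as the sole control. That array had the raised E1A median of 23.3 intensity units, the lowest Actb and the highest Gusb value among the controls, and a Hsp90ab1 value within the range of the reperfused arrays. The differences there were 0.46 for Actb, -0.22 for B2m, -0.0052 for Hsp90ab1, 0.11 for Hprt1 and -1.65 for Gusb. They hold the slide row fixed but rest on that 1 control array. A difference between the groups therefore cannot be told apart from a trait of that array. The second row held control arrays only and gave no comparison. With the replicate number as a block the 5 differences were as without it, and again none passed, with limma adjusted p = 0.221 for Actb and 0.0762 for Gusb.

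Stability across all 6 arrays was described by the SD of the normalized log2 signal, which still contains any group difference. With the main scaling B2m had the smallest SD, 0.19, followed by Hprt1 (0.21), Actb (0.27), Hsp90ab1 (0.29) and Gusb (0.69), against a median of 0.28 over the 43 tested probes. Larger SDs were found for 36 of the 43 probes in the case of B2m, 27 for Hprt1, 22 for Actb, 20 for Hsp90ab1 and 1 for Gusb. Within groups the pooled SDs were 0.20 for Actb, 0.21 for B2m, 0.23 for Hsp90ab1, 0.23 for Hprt1 and 0.55 for Gusb. The first 4 of these lay close together. In signals without scaling between arrays the SDs were 0.31 for Actb, 0.34 for Hsp90ab1, 0.40 for Hprt1, 0.42 for B2m and 0.82 for Gusb, which puts Actb ahead of B2m. The order turned with scalings that depend on brightness. Hprt1 then had the largest SD of the 5, 0.64 with quantile scaling, 0.52 with cyclic loess and 0.51 against circRNA probes of like brightness, where Gusb had 0.43, 0.40 and 0.40. Hsp90ab1 had the smallest under these 3, at 0.11, 0.057 and 0.10, and B2m had 0.27, 0.30 and 0.25. With scaling to the E1A probes the smallest was Gusb, at 0.36. With normexp the smallest was Hprt1, at 0.12, while Gusb had 0.15 and Hsp90ab1 0.29. Hprt1 was also the smallest with the mean of the mRNA probes, at 0.20 against 0.23 for B2m.

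The repeat spots showed how much of this spread arose within an array. Median SDs over spots were 0.04 for B2m, 0.05 for Hsp90ab1 and 0.08 for Actb, and 0.19 for Gusb and 0.20 for Hprt1, the dim pair. The largest SE of a probe mean was 0.11, for Hprt1 on ischemia-reperfusion replicate 2. For Hprt1 the SD between arrays was 1.94 times that SE, whereas for Hsp90ab1 it was 17.1 times the largest spot SE. Outlier flags removed 3 of 60 spots for Hprt1, 2 for B2m, 1 for Gusb and 0 for Actb and Hsp90ab1. Spots of 1 array share a labelled sample and were not counted as replicates.

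Ratios of 2 reference genes on the same array are free of any scaling that shifts all probes of an array equally. Because the size of a ratio depends on both probes, only its change between arrays was read, relative to the control mean. The 10 ratios were each put to an exact permutation test, two-sided, in which 3 against 3 cannot go below p = 0.1, so none could pass 0.05 and no adjustment was made. For 3 of the 10 the groups did not overlap, Actb/Hsp90ab1, Actb/Hprt1 and B2m/Gusb, each with exact p = 0.1. Among all 903 pairs of tested mRNA probes the groups did not overlap for 171, or 18.9%.

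Actb relative to Hsp90ab1 stood at 0.54, 0.93 and 0.76 on ischemia-reperfusion arrays 1 to 3 and at 0.28, -0.11 and -0.17 on the control arrays. All ischemia-reperfusion values were higher, and the difference of 0.74 (SE 0.18) corresponds to a 1.67-fold change of the ratio. Leaving out 1 array gave 0.65 to 0.88, and cyclic loess, which treats bright and dim probes separately, gave 0.46. B2m relative to Gusb stood at 0.55, 1.23 and 1.11 against -0.47, 0.47 and -0.0052 in controls, a difference of 0.96 (SE 0.34) that was 0.73 to 1.20 when 1 array was left out. With normexp it was 0.18 and the groups overlapped (exact permutation p = 0.5). Actb relative to Hprt1 stood at 0.25, 0.74 and 0.27 against 0.07, -0.24 and 0.17, a difference of 0.42 (SE 0.20). Cyclic loess gave 0.10 for that last ratio, circRNAs of like brightness 0.06 and quantile scaling 0.023.

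With the main scaling the widest change was that of Actb relative to Gusb, which joins both ends of the ordered differences and therefore exceeded all other pairs of tested probes. It stood at 0.62, 1.91 and 1.29 after ischemia-reperfusion and at -0.83, 0.64 and 0.20 in controls. Ischemia-reperfusion replicate 1 lay just below control replicate 2, so the groups overlapped. The highest value, 1.91, came from ischemia-reperfusion replicate 2, where Gusb was not well above background. The difference was 1.27 (SE 0.57, exact permutation p = 0.2), 0.96 without that array and 0.86 without control replicate 1. With normexp it was 0.36, below the 0.62 of Actb/Hsp90ab1 in that setting. The remaining ratios had differences of 0.85 for Hprt1/Gusb, -0.53 for Gusb/Hsp90ab1, 0.43 for B2m/Hsp90ab1, 0.33 for Hprt1/Hsp90ab1, 0.31 for Actb/B2m and 0.11 for B2m/Hprt1. In all of these the groups overlapped (exact permutation p = 0.2 to 0.7). Without control replicate 1, Gusb/Hsp90ab1 changed from -0.53 to 0.028.

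**Figure D4:**
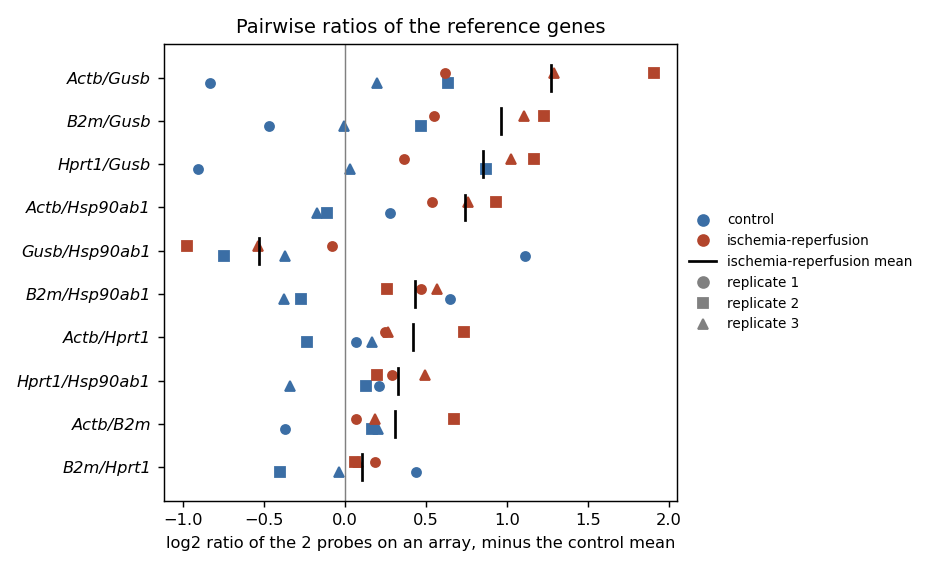
Log2 ratio of 2 reference gene probes on the same array, minus the mean of the 3 control arrays, for all 10 pairs; blue points are control arrays, red points ischemia-reperfusion arrays, marker shapes give the replicate number and black ticks the ischemia-reperfusion mean. Red points lie wholly to the right of blue ones for Actb/Hsp90ab1, Actb/Hprt1 and B2m/Gusb, and the 3 ratios with Gusb in second place have the control replicate 1 circle far to the left.

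The geNorm measure M, the mean SD of a gene's log ratios with the other genes of a set, is small for a gene that moves with the rest. Within the 5 genes M was 0.41 for Hprt1, 0.42 for B2m, 0.48 for Hsp90ab1, 0.51 for Actb and 0.78 for Gusb. The array carries 12 custom probes of 1 design to which these 5 belong, and 10 of the 12 had a gene name. In that set of 10, Pgk1 (0.33) and Rpl13a (0.35) had lower M than Hprt1 (0.39), Hsp90ab1 (0.39) and B2m (0.42). Actb (0.54) and Gusb (0.69) had the highest values. Pgk1 is an ATP-producing enzyme of glycolysis and Rpl13a a protein of the large ribosomal subunit. A low M is not a constant level, since Pgk1 had a group difference of -0.41 (SE 0.16, limma adjusted p = 0.189).

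Dividing by each reference gene in turn showed how far the choice would shift the other mRNA probes. Because Actb and Gusb are the ends of the ordered differences, all 42 other probes had negative differences relative to Actb, and all 42 had positive ones relative to Gusb. The median difference of the other probes was -0.63 with Actb as the scaler, -0.32 with B2m, -0.21 with Hprt1, 0.12 with Hsp90ab1 and 0.65 with Gusb. The sign of the median thus depended on the reference gene chosen. The median residual SD was 0.27 with Actb and 0.28 with Hprt1, and 0.63 with Gusb.

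With Actb as the scaler, 9 of 42 probes, or 21.4%, passed an adjusted p of 0.05 in limma, and all 9 were lower. They included Hsp90ab1, at -0.74 (SE 0.22, limma adjusted p = 0.0421), Pgk1, at -0.79 (SE 0.22, limma adjusted p = 0.0421), and Sdha, the flavoprotein subunit of succinate dehydrogenase, at -0.94 (SE 0.24, limma adjusted p = 0.0398). The Hsp90ab1 value is the Actb/Hsp90ab1 log ratio with its sign turned. With Hsp90ab1 as the scaler that ratio did not pass, at 0.74 (SE 0.20, limma adjusted p = 0.346). B2m and Hprt1, at -0.31 and -0.42 relative to Actb, did not pass, and neither did Gusb at -1.27 (limma adjusted p = 0.0514). This count rested on single arrays. Leaving out ischemia-reperfusion replicate 1, 2 or 3 gave 14, 2 or 3, and leaving out control replicate 1, 2 or 3 gave 3, 0 or 0. With the replicate number as a block it was 24.

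With each of the other 4 as the scaler, 0 of 42 probes passed in limma. At an unadjusted p under 0.05 there were 9 with B2m, 6 with Gusb, 4 with Hsp90ab1 and 3 with Hprt1. With the replicate number as a block the counts that passed were 16 with Gusb, 2 with B2m, 1 with Hprt1 and 0 with Hsp90ab1. Without control replicate 1 they were 10 with B2m and 10 with Hsp90ab1. In those 2 fits each group filled a slide row of its own, so group and row cannot be told apart. B2m also gave 3 when ischemia-reperfusion replicate 3 was left out and 1 when control replicate 2 was.

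**Figure D5:**
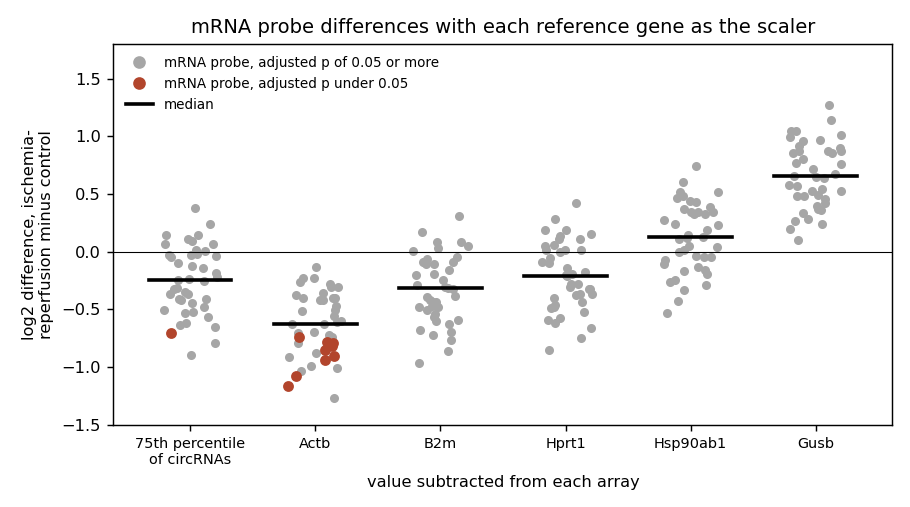
Log2 difference, ischemia-reperfusion minus control, of each mRNA probe after subtracting the 75th percentile of the circRNA probes (43 probes) or the value of 1 reference gene (42 probes) from each array; red points have a limma adjusted p under 0.05 and black lines mark medians. All points lie below 0 with Actb and above 0 with Gusb, and the medians run from -0.63 to 0.65.

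Other genes that are often used as references formed a list of 30, of which 5 were on the array, with 6 probes. None of the 6 passed in limma. Rplp1, a protein of the ribosomal stalk, had a difference of -0.54 (SE 0.27), Rpl13a one of -0.26 (SE 0.17) and Sdha one of -0.56 (SE 0.22). Ldha, a subunit of lactate dehydrogenase, had -0.66 (SE 0.33) at the custom probe and -0.33 (SE 0.24) at the second probe. All 6 were negative, beside 76.7% of the 43 tested probes, and with the main scaling Actb and B2m were the only named reference genes on the array with positive differences. Of the other 3 genes of the 5, Hprt1 joined them under the 6 scalings listed for it above, and Hsp90ab1 with scaling to the E1A probes. That last scaling subtracts the E1A difference of -0.56 from all probes alike. Rpl13a, Pgk1, Rplp1 and Ldha at its second probe therefore turned positive there too.

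Likeness between genes was measured by Pearson's r of normalized log2 signal over the 6 arrays, which share the scaling, with each reference gene set against the other named probes detected on all 6 arrays. Gusb was most like Eif4b (r = 0.99, Spearman's rho = 1, and r = 0.89 without the 2 arrays where Gusb lay farthest from its median) and then Slc28a2 (r = 0.90, rho = 0.83, and 0.22). B2m was most like Pdcd10 (r = 0.91, rho = 1, and 0.98) and Ndfip1 (r = 0.90, rho = 0.94, and 0.83). Hsp90ab1 was most like Sdha (r = 0.97, rho = 0.83, and 0.52) and Cyp2e1 (r = 0.91, rho = 0.60, and 0.09). The relations with Slc28a2, Sdha and Cyp2e1 thus rested largely on 2 arrays.

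Actb had no close match. Its highest r was 0.52, with P2rx2 (rho = 0.14, and -0.08 without 2 arrays), and then 0.14, with Hprt1, and only 5 of 24 probes had a positive r with it. For Hprt1 the highest were Ldha at its second probe (r = 0.71, rho = 0.43) and Sdha (r = 0.52, rho = 0.37), and both turned negative without 2 arrays, at -0.96 and -0.62. No p-value is given for these relations because each was chosen as the highest among 24 or 25.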

How the data were processed

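Each array's deposited table holds linear spot intensity from Agilent Feature Extraction 11.0.1.1, run with a 1-colour protocol for a design on rn4, per the file headers. Background subtraction and spatial detrending within the array were already applied to the processed intensity, per the file headers, with no scaling between arrays. The 0 or 1 flags for outlier, saturated and well-above-background spots in the deposited tables were used as given. The deposited series table was not used, since it holds circRNA probes only.

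Processed intensity was taken to log2, flagged outlier spots were dropped, spots of a probe were averaged, and the 75th percentile of log2 circRNA signal of the same array was subtracted. An mRNA probe was detected on an array when over 50% of its kept spots were well above background. The 43 of 62 that met this on every array of either group were fitted in R 4.3.3 with limma 3.58.1 (lmFit, then eBayes, two-sided, without covariates), with Benjamini-Hochberg adjustment over the 43 and a threshold of 0.05. That fit was checked on simulated data. Symbols came from RefSeq transcripts of assembly GRCr8, used for names only, and 39 of the 62 probes matched. Figures were drawn with matplotlib 3.10.9.

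The named genes were the 5 reference genes, other common reference genes from a fixed list, and for each reference gene the 2 most correlated named probes. Genes, lists and tests were chosen with earlier results of these data known. Scaling to the E1A probes and the comparison with the 200 circRNA probes of most similar signal were added after the data were seen. Replicates carry numbers 1 to 3 in each group, per the labels. After removal of group means, arrays with the same number correlated at r = 0.60, 0.29 and 0.19 across 12960 circRNA probes, all above 0.1, so the numbers were treated as possible pairs and blocked values are given where they change a call or count. Over the 43 mRNA probes the same values were 0.41, 0.26 and -0.22. The number of arrays limits the precision.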

Additional observations from a re-analysis of the deposited data

How the results depend on the processing

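For the 5 group differences, 105 of 119 alternatives kept both the direction and the side of the threshold. Hprt1 turned positive with quantile scaling (0.35), cyclic loess (0.28), the mean of the mRNA probes (0.20), normexp (0.024), the E1A probes (0.51), circRNA probes of like brightness (0.31) and the slide row as a block (0.11). B2m turned negative with the slide row as a block (-0.22), and Hsp90ab1 positive with the E1A probes (0.19). Without 1 array the differences ranged from 0.25 to 0.52 for Actb, -0.039 to 0.21 for B2m, -0.13 to 0.12 for Hprt1, -1.17 to -0.52 for Gusb and -0.55 to -0.27 for Hsp90ab1. The replicate block changed no call among these 5 differences.

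For the 10 log ratios, 124 of 130 alternatives kept their direction. B2m/Hprt1 turned negative with quantile scaling (-0.23), cyclic loess (-0.088) and circRNA probes of like brightness (-0.18), and Gusb/Hsp90ab1 turned positive with normexp (0.26). Without 1 array the ratios ranged from 0.13 to 0.43 for Actb/B2m, 0.86 to 1.60 for Actb/Gusb, 0.26 to 0.50 for Actb/Hprt1, 0.65 to 0.88 for Actb/Hsp90ab1, 0.73 to 1.20 for B2m/Gusb, -0.093 to 0.33 for B2m/Hprt1, 0.25 to 0.76 for B2m/Hsp90ab1, -0.90 to 0.028 for Gusb/Hsp90ab1, 0.40 to 1.29 for Hprt1/Gusb and 0.16 to 0.43 for Hprt1/Hsp90ab1.

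The number of mRNA probes that passed, 1 in the main setting, was 0 with the 75th percentile of circRNA and mRNA probes, the circRNA median, quantile scaling, cyclic loess, the mean of the mRNA probes, no scaling, normexp, the E1A probes, circRNA probes of like brightness, no filter on detection, both kinds of probe in 1 fit, the replicate block and the slide row as a block. It was 2 with circRNA probes detected on all 6 arrays, with flagged spots kept and with only mRNA probes detected on all 6 arrays, 4 with array quality weights, and 0 to 5 without 1 array. With Actb as the scaler the count of 9 became 24 with normexp, 4 with the median of the spots, 0 with no filter on detection, 15 with probes detected on all 6 arrays, 24 with the replicate block and 0 to 14 without 1 array. The replicate block gave 2 with B2m, 1 with Hprt1 and 16 with Gusb, and leaving out 1 array gave 0 to 10 with B2m or Hsp90ab1.

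SDs over the arrays moved by at least the pooled SD within groups with scaling to the E1A probes (0.68 for Actb, 0.45 for B2m, 0.57 for Hprt1, 0.55 for Hsp90ab1), without scaling (0.42 for B2m), with quantile scaling (0.64 for Hprt1), cyclic loess (0.52 for Hprt1, 0.057 for Hsp90ab1) and circRNA probes of like brightness (0.51 for Hprt1). Changes that were smaller than this but over 1.5 times included Gusb with the E1A probes (0.36), normexp (0.15), quantile scaling (0.43), cyclic loess (0.40) and like brightness (0.40), and Hsp90ab1 with quantile scaling (0.11) and like brightness (0.10). The cause of these changes was not tested. Low signal over background limits Gusb and Hprt1.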
